A study of Mus musculus with 8 samples.

Results

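The 10 genes Rcan1, Rcan2, Rcan3, Ppp3ca, Ppp3cb, Ppp3r1, Nfatc1, Nfatc2, Nfatc3 and Nfatc4, which encode calcineurin subunits, the NFAT transcription factors that calcineurin acts on and the Rcan proteins that bind calcineurin, were followed in RNA sequencing of mouse myocardium. They were taken by gene symbol from the 33249 genes of the deposited gene table, with the 6 Rcan1 rows of the 94947 rows of the transcript table. All 10 passed the expression filter and were among the 14028 genes tested. The study asked whether deletion of Piezo1, a stretch-activated cation channel, alters calcium-dependent signaling in the heart after myocardial infarction (MI).

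The 8 libraries cover 2 genotypes after either surgery, giving fl/fl-Sham and CKO-Sham as controls and fl/fl-MI and CKO-MI as infarcted groups. Each group has 2 libraries, named here by group and replicate number. All mice carried floxed Piezo1 (fl/fl). CKO mice also carried a Cre recombinase fused to part of the estrogen receptor (MerCreMer) under the Myh6 promoter, which is active in cardiomyocytes and is switched on by tamoxifen, and fl/fl mice were littermates without it. Tamoxifen was given for 5 days at 4 weeks of age to induce the deletion, the left anterior descending coronary artery was tied permanently at 8 weeks of age, or not tied in sham surgery, and MI myocardium was taken at day 42. RNA came from whole tissue, so fewer cells of a type and less RNA per cell cannot be told apart. Nothing states whether each library was a separate animal, and p-values measure the spread between these libraries.

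Calcineurin is a phosphatase switched on by calcium and calmodulin. It is built from a catalytic subunit (encoded by Ppp3ca, Ppp3cb or Ppp3cc) and a regulatory, calcium-binding subunit (Ppp3r1 in the heart). It removes phosphates from NFAT proteins, which then enter the nucleus and bind DNA at the core GGAAA, often beside other factors, while kinases such as GSK3 and DYRK put the phosphates back. Calcineurin and NFAT are known as drivers of cardiac hypertrophy, and Rcan proteins bind calcineurin and can inhibit it. A short form of Rcan1 mRNA made from a promoter at exon 4 is a known target of NFAT and is used as a readout of calcineurin activity.

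Counts per library summed to between 73821747 and 88117573, and mitochondrially encoded genes took 43.1% to 46.4% of them in sham and 19.9% to 24.2% in MI libraries. Levels are given as CPM, the share of the TMM-normalized library total that a gene's counts make up, or, to compare genes or transcripts with each other, as FPKM, which is per length. Piezo1 RNA of whole tissue was not lower in CKO libraries. It stood at 72.2 and 82.0 CPM in fl/fl-Sham and at 76.7 and 88.3 CPM in CKO-Sham, and after MI at 53.5 and 64.8 CPM in fl/fl and at 56.3 and 64.6 CPM in CKO libraries. The deletion was aimed at cardiomyocytes, whose own Piezo1 RNA was not measured here. The study reports that it checked the deletion by Western blot in isolated adult cardiomyocytes. Esr1, whose ligand-binding part is in the transgene, stood at 5.52 to 8.36 CPM in sham libraries and fl/fl-MI 1. The level was 331 CPM in fl/fl-MI 2 and reached 707 and 402 CPM in CKO-MI, so that Esr1 went against the genotype label of 3 libraries (CKO-Sham 1, CKO-Sham 2 and fl/fl-MI 2). Genotype below therefore means the label. The library labelled fl/fl-MI 2 also stood apart in 4 atrial markers, which summed to 8111 CPM there and to 26.7 to 90.1 CPM in the other 7 libraries. The tissue label was borne out by cardiomyocyte markers, of which 7 of 7 were found in every library, with summed levels of 27056 to 30763 CPM in sham and 13746 to 31721 CPM in MI.

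With both genotypes pooled, 5 of the 10 genes rose after MI and none fell. These were Rcan1, Rcan2, the regulatory subunit gene Ppp3r1, Nfatc1 and Nfatc2. Rcan1 was raised 6.08-fold and Rcan2 1.85-fold, while the other 3 changed by 1.37-fold to 1.56-fold. Of all genes tested, 22% were called higher at an adjusted p below 0.05 and 40.4% in either direction (edgeR quasi-likelihood test, Benjamini-Hochberg adjustment over 14028 genes). The median log2 change of the 10 was 0.42, against 0.03 over all tested genes. The 4 MI libraries were all above the 4 sham libraries for 6 of the 10 (the 5 called genes and Ppp3cb), as they were for 20.9% of tested genes. On the FPKM scale, where limma called 9 of the 10, the median log2 change of all genes was itself shifted to 0.41 with a pseudocount of 1 and 0.56 with a pseudocount of 0.1, and 7864 and 7954 of all genes were called. With fl/fl-MI 2 left out, 7 of the 10 were called, and calls over all genes went from 5663 to 7108. With fl/fl-Sham 2 left out the calls were Rcan1 and Rcan2, and those over all genes went to 3235.

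**Figure D1:**
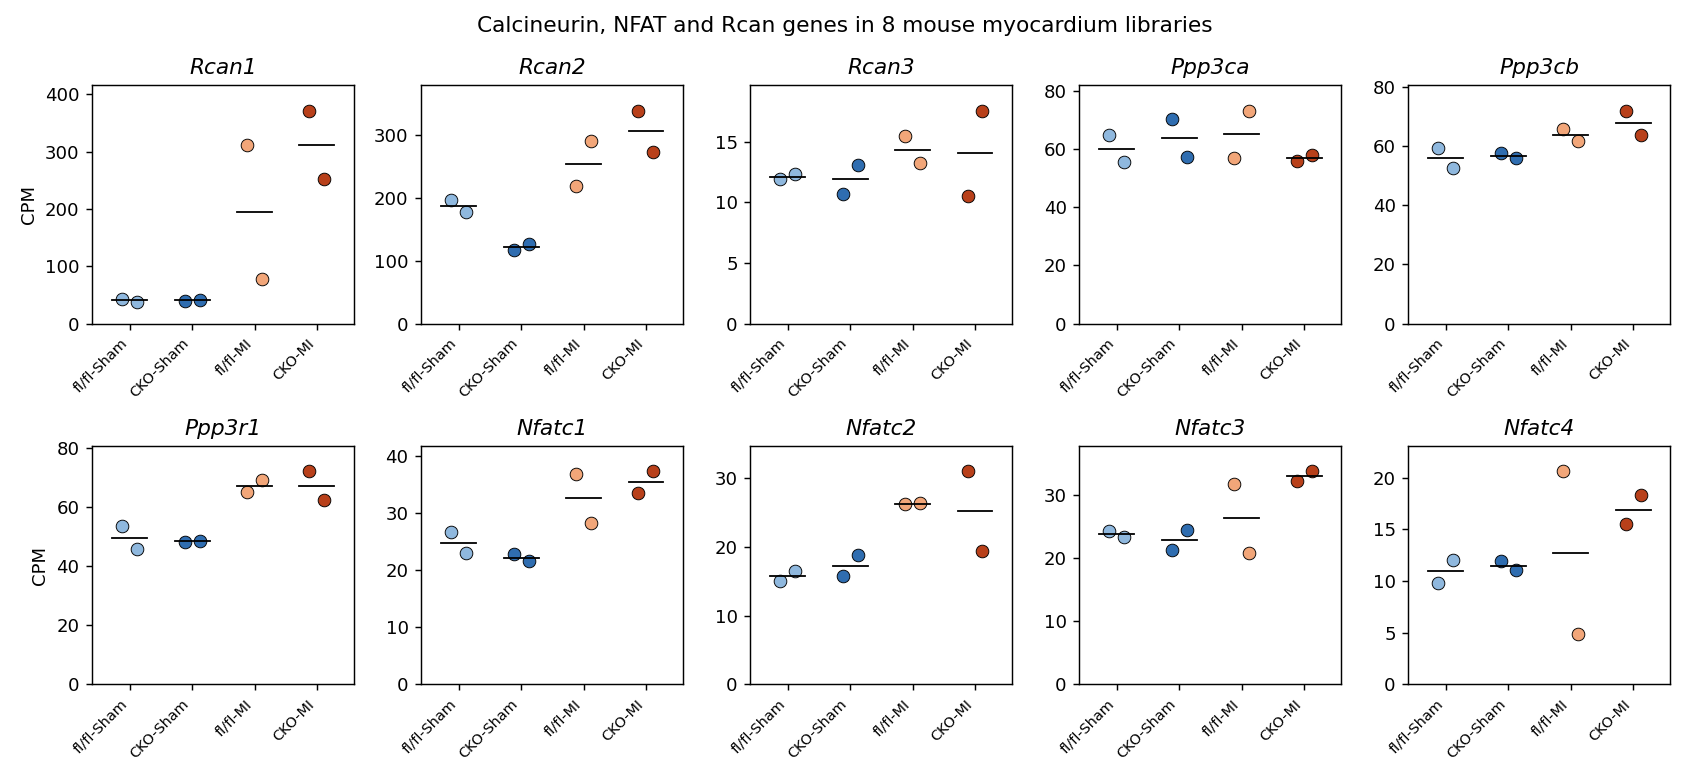
CPM (y axis, from 0) of the 10 genes in each of the 8 libraries, by group (x axis), with a point per library and a line at the mean of the 2. Rcan1 separates sham (38.4 to 43.0) from MI (77.7 to 372), Rcan2 is lowest in CKO-Sham (117 and 127), and the library labelled fl/fl-MI 2 is the lowest of the MI libraries for Rcan1, Ppp3cb, Nfatc1, Nfatc3 and Nfatc4.

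Rcan1 (ENSMUSG00000022951, minus strand of GRCm38 chr16:92391953-92470867) showed the largest change of the 10. It had 43.0 and 38.4 CPM in fl/fl-Sham and 39.1 and 41.8 CPM in CKO-Sham. After MI the fl/fl libraries stood at 312 and 77.7 CPM and the CKO libraries at 372 and 253 CPM. Every MI library was above every sham library, while the fl/fl-MI pair differed from each other more than the CKO-MI pair. The log2 fold change after MI was 2.60 (SE 0.41, adjusted p = 0.00377, edgeR), and it was between 1.92 and 2.94 when any single library was left out, with each of these still called. In length-normalized units Rcan1 went from 10.4 ± 0.261 FPKM in sham to 97.8 ± 48.6 FPKM in MI (mean ± SD, n = 4), and to 121 ± 15.3 FPKM (n = 3) without fl/fl-MI 2.

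The transcript table resolved this change by promoter. Of the 6 Rcan1 rows, ENSMUST00000023672 and ENSMUST00000232457 start at the exon 4 promoter, at positions 92400077 and 92399978, and are called the short form here. The rows ENSMUST00000232239 and ENSMUST00000060005 start at 92466143 and 92466146 and ENSMUST00000231410 at 92458475, all upstream, and are called the long form. ENSMUST00000231813 starts inside the last part of the gene and was assigned to neither. The distance between the 2 RefSeq start sites is 66091 bases. The 250 bases before each of them, from RefSeq promoters on GRCm38.p6, are shown because the mRNAs of these starts changed by different amounts. They are written 5′ to 3′ on the minus strand, with the NFAT core GGAAA, or TTTCC where it lies on the other strand, in capitals.

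Short form, chr16:92400079-92400328: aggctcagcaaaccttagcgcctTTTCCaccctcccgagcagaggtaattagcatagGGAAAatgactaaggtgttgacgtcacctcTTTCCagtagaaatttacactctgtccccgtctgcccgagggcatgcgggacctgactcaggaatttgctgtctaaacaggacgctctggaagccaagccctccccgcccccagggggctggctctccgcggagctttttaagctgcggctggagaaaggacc

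Long form, chr16:92466170-92466419: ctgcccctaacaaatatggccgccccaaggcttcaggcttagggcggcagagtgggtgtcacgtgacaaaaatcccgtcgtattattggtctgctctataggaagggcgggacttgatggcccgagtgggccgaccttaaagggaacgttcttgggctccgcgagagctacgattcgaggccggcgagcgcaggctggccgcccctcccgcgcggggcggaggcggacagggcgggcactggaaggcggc

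The exon 4 window held 3 matches to GGAAA on either strand, with first bases at -227, -193 and -163 relative to the start, and the upstream window held 0. Among 32817 RefSeq promoter windows of the same length, 55.6% held at least 1 match and 6.38% at least 3. For the longer motif TGGAAA, which contains GGAAA, the exon 4 window had 2 matches, a number reached by 2.28% of windows. It also had 1 match to TGANTCA, the AP-1 motif bound by Fos and Jun proteins, found in 6.75% of windows. Among windows of the other members, 3 matches to GGAAA were found at 1 of the starts of Nfatc2 and at those of Ppp3cb and Nfatc4. Windows of Ppp3ca and Nfatc1 were not among those searched. A match is a run of letters, and binding was not measured.

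The short form carried most of the increase. ENSMUST00000023672, the main short-form row, had 4.70 and 7.22 FPKM in fl/fl-Sham, 4.33 and 5.27 FPKM in CKO-Sham, 158 and 20.2 FPKM in fl/fl-MI, and 161 and 117.7 FPKM in CKO-MI. FPKM of transcript rows and of genes are not on the same scale, and Rcan1 as a gene was at 129 FPKM in fl/fl-MI 1. The library labelled fl/fl-MI 2 was the lowest of the MI libraries and still above all sham libraries. The log2 fold change after MI was 3.87 (SE 0.65, adjusted p = 0.0193, edgeR over 26966 transcripts), a 14.6-fold increase. The call was lost when any library other than the 2 labelled fl/fl-MI was left out, with log2 changes of 3.65 to 4.01 and adjusted p of 0.0504 to 0.0784.

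The other short-form row, ENSMUST00000232457, is a processed transcript without an annotated coding sequence, at 0.0682 to 0.253 FPKM in sham and 1.23 to 3.33 FPKM in MI libraries. It rose by 3.54 on the log2 scale (SE 0.44, adjusted p = 0.0102, edgeR), and by 1.55 with limma on log2(FPKM + 1). This rests on few reads, with deposited counts of 8, 6, 3 and 3 after sham surgery against 37 to 103 after MI. ENSMUST00000232239, the main long-form row, had 8.52 and 6.32 FPKM in fl/fl-Sham, 9.14 and 8.88 FPKM in CKO-Sham, 22.1 and 16.9 FPKM in fl/fl-MI, and 21.6 and 26.4 FPKM in CKO-MI. It also separated sham from MI, and its log2 fold change of 0.90 (SE 0.15, adjusted p = 0.0185, edgeR) was below that of the short form, a difference tested here through the shares given next. Its call was lost without CKO-Sham 1, CKO-Sham 2, CKO-MI 1 or CKO-MI 2, with adjusted p of 0.0589 to 0.0685, and without a filter on low values (adjusted p = 0.0607). Of all transcripts tested, 9.35% were called higher after MI and 16.9% in either direction. The other 3 rows were at or below 1.26 FPKM in every library and were not tested.

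Read as a share of the summed FPKM of all 6 rows, the short form made up 33.6% and 52.1% of Rcan1 in fl/fl-Sham and 31.9% and 36.8% in CKO-Sham. In MI it made up 87.8% and 55.5% in fl/fl-MI and 88.3% and 81.8% in CKO-MI. The lowest MI library (fl/fl-MI 2) lay just above the highest sham library (fl/fl-Sham 2). The mean share was 38.6% ± 9.24 in sham and 78.3% ± 15.5 in MI (SD, n = 4 each, exact two-sided permutation p = 0.0286, the smallest this design can give). Without fl/fl-MI 2 the MI mean was 86.0% ± 3.58 (n = 3). The shares rest on how the authors' software divided reads between overlapping transcripts, and the part of that step in the result was not tested.

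**Figure D2:**
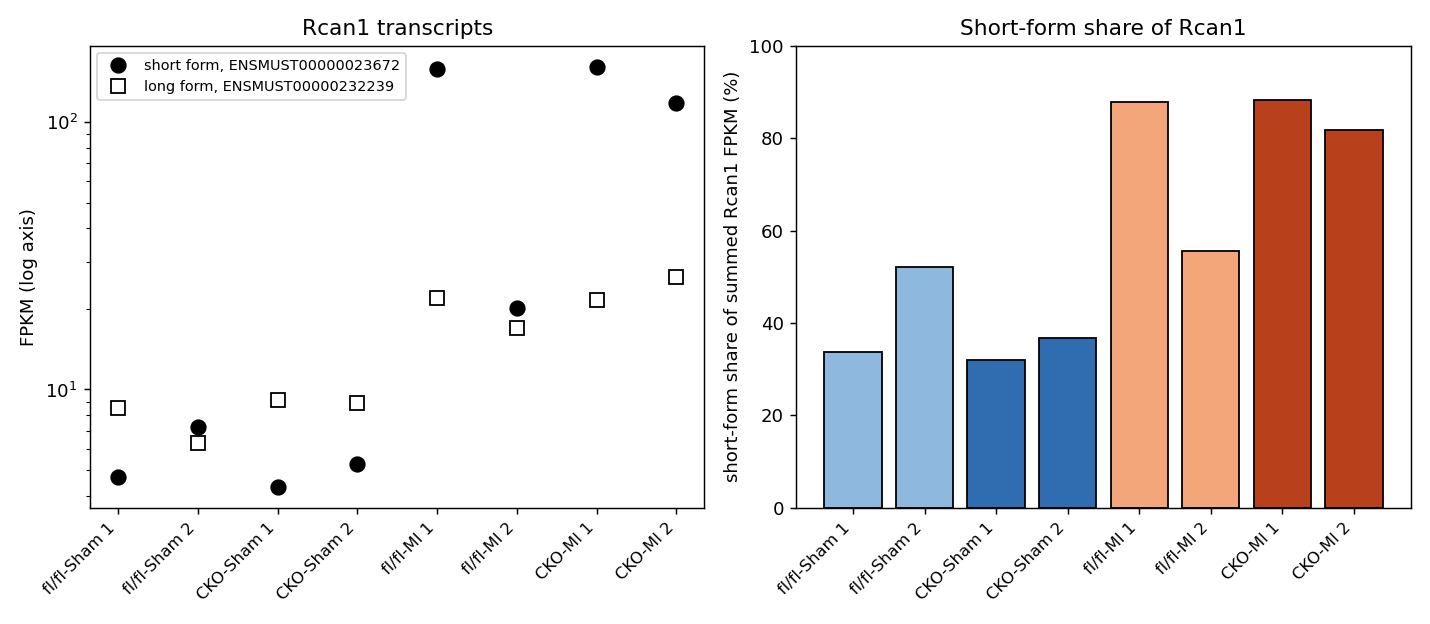
Left, FPKM (log axis) of the main short-form and long-form rows of Rcan1 in each library. Right, the short-form share of summed Rcan1 FPKM in percent. The short form is below the long form in 3 of 4 sham libraries and above it in all 4 MI libraries, by the least in the library labelled fl/fl-MI 2, where its share is 55.5%.

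Rcan2 (ENSMUSG00000039601, plus strand of chr17:43801351-44039060), the family member with the highest level in sham myocardium, had 196 and 177 CPM in fl/fl-Sham and 117 and 127 CPM in CKO-Sham. After MI the fl/fl libraries stood at 218 and 290 CPM and the CKO libraries at 338 and 273 CPM. All MI libraries were above all sham libraries, and both CKO-Sham libraries were below both fl/fl-Sham libraries. The log2 fold change after MI was 0.88 (SE 0.14, adjusted p = 0.0035, edgeR), and it was called in every alternative run, with values from 0.77 to 1.44. The leading transcript rows of Rcan2, Nfatc1, Nfatc2, Ppp3ca and Ppp3cb were looked at. For Nfatc2, ENSMUST00000109184 led in every MI library and in CKO-Sham 1, and ENSMUST00000074618 in the other sham libraries. For Ppp3ca, ENSMUST00000070198 led in every library, and for Nfatc1 and Ppp3cb the leading row varied among sham libraries. The Rcan2 rows of the transcript table were inspected after their values were seen and are given as a description. ENSMUST00000044895, which starts at 43804003, made up 70.2% to 82.3% of summed Rcan2 FPKM in sham and 4.2% to 40.2% in MI libraries. ENSMUST00000229744, which starts at 43801844, had 2.89 to 12.5 FPKM in sham and 70.8 to 112 FPKM in MI libraries and made up 9.78% to 27.9% in sham and 58.0% to 93.7% in MI libraries. For both rows the shares did not overlap between surgeries, although the FPKM of ENSMUST00000044895 did (22.2 to 34.2 in sham and 5.04 to 49.1 in MI libraries). In the whole-table fit ENSMUST00000229744 had a log2 change of 2.85 (SE 0.40, adjusted p = 0.0126, edgeR), and ENSMUST00000044895 of -0.83 (SE 0.68, adjusted p = 0.441).

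**Figure D3:**
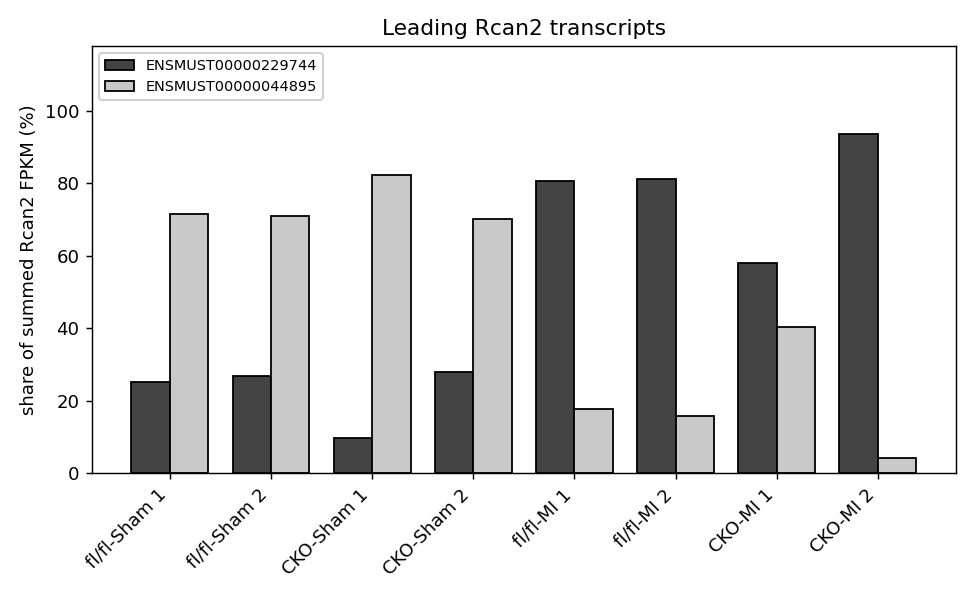
Share of summed Rcan2 FPKM (percent, y axis) held by its 2 leading transcript rows in each library (x axis). ENSMUST00000044895 leads in the 4 sham libraries (70.2% to 82.3%) and ENSMUST00000229744 in the 4 MI libraries (58.0% to 93.7%).

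Rcan3 (ENSMUSG00000059713, minus strand of chr4:135412308-135433853), the third family member, was at 10.7 to 13.1 CPM in sham and 10.5 to 17.6 CPM in MI libraries. These ranges overlapped, and the log2 change of 0.24 (SE 0.19, adjusted p = 0.33, edgeR) did not pass. It was 0.0186 without CKO-MI 2 and 0.38 without CKO-MI 1. Its exons overlap Mir700, so that reads from these cannot be assigned with certainty. Per length, the family in sham myocardium was ordered Rcan2 (21.6 to 34.5 FPKM), Rcan1 (10.2 to 10.7 FPKM) and Rcan3 (1.68 to 1.999 FPKM), with no overlap. In MI libraries Rcan1 (27.3 to 131 FPKM) and Rcan2 (63.7 to 84.1 FPKM) overlapped, and Rcan3 (2.23 to 4.35 FPKM) stayed below both.

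Among the calcineurin subunits the regulatory one changed. Ppp3r1 (ENSMUSG00000033953, plus strand of chr11:17159263-17200375) had 53.5 and 45.8 CPM in fl/fl-Sham and 48.3 and 48.6 CPM in CKO-Sham. After MI the fl/fl libraries stood at 65.3 and 69.3 CPM and the CKO libraries at 72.2 and 62.5 CPM. The sham and MI libraries did not overlap. It rose by 0.46 on the log2 scale after MI (SE 0.10, adjusted p = 0.012, edgeR), and the call was lost without fl/fl-Sham 2 (adjusted p = 0.0603) or CKO-Sham 1 (adjusted p = 0.054). Ppp3r1 shares exon sequence on its own strand with Wdr92 in GENCODE M21, so that its counts are uncertain to that extent.

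The catalytic subunits did not pass the test. Ppp3cb (ENSMUSG00000021816, minus strand of chr14:20499364-20546573) was at 52.5 to 59.4 CPM in sham and 61.6 to 72.0 CPM in MI libraries, ranges that did not overlap, with a log2 change of 0.22 (SE 0.10, adjusted p = 0.103, edgeR). Ppp3ca (ENSMUSG00000028161, plus strand of chr3:136670124-136937727) was at 55.4 to 70.3 CPM in sham and 55.7 to 73.2 CPM in MI libraries, which overlapped, with a log2 change of -0.03 (SE 0.13, adjusted p = 0.886) that turned to 0.46 (adjusted p = 0.0124) with limma on log2(FPKM + 1), close to the median of all genes on that scale. Ppp3cb made up 50.8% ± 1.92 of the summed FPKM of both in sham and 55.1% ± 4.51 in MI (SD, n = 4 each, exact two-sided permutation p = 0.114). Without fl/fl-MI 2, which had the lowest MI share at 48.8%, the MI mean was 57.2% ± 1.97 (n = 3), the ranges no longer overlapped, and the exact permutation p was 0.0571, the smallest that 3 against 4 libraries allow. Per length, Ppp3r1 was above both catalytic genes, with 11.7 to 12.8 FPKM in sham against 4.48 to 5.65 FPKM for Ppp3ca and 4.90 to 5.25 FPKM for Ppp3cb, which overlapped.

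Of the 4 NFAT genes, Nfatc1 and Nfatc2 were called higher after MI. Nfatc1 (ENSMUSG00000033016), best known in the heart for its part in valve formation, had 26.6 and 22.9 CPM in fl/fl-Sham and 22.8 and 21.5 CPM in CKO-Sham. After MI the fl/fl libraries stood at 36.8 and 28.2 CPM and the CKO libraries at 33.4 and 37.3 CPM. Its sham and MI libraries did not overlap, and its log2 change was 0.53 (SE 0.12, adjusted p = 0.0122, edgeR). Without fl/fl-Sham 2 or CKO-Sham 2 the adjusted p of Nfatc1 was 0.0589 and 0.0511. Nfatc2 (ENSMUSG00000027544, minus strand of chr2:168476410-168601632), first described in T cells, had 15.0 and 16.5 CPM in fl/fl-Sham and 15.8 and 18.8 CPM in CKO-Sham. After MI the fl/fl libraries stood at 26.2 and 26.4 CPM and the CKO libraries at 31.0 and 19.3 CPM. The ranges did not overlap, although CKO-MI 2 lay close to the highest sham library. Its log2 change was 0.64 (SE 0.16, adjusted p = 0.0202, edgeR), and the call was lost without fl/fl-Sham 1, fl/fl-Sham 2 or CKO-Sham 1 (adjusted p of 0.063 to 0.0806). Without CKO-MI 1 the change was 0.42.

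Nfatc3 and Nfatc4 did not pass with all libraries. Nfatc3 (ENSMUSG00000031902, plus strand of chr8:106058840-106128042) was at 21.3 to 24.5 CPM in sham and at 31.8, 20.9, 32.2 and 33.8 CPM in fl/fl-MI 1, fl/fl-MI 2, CKO-MI 1 and CKO-MI 2. Nfatc4 (ENSMUSG00000023411, plus strand of chr14:55823144-55833943) was at 9.84 to 12.1 CPM in sham and at 20.6, 4.89, 15.5 and 18.4 CPM in the same MI libraries. For both genes the library labelled fl/fl-MI 2 was below every sham library and the other 3 MI libraries were above them. The log2 change was 0.34 for Nfatc3 (SE 0.14, adjusted p = 0.102, edgeR) and 0.39 for Nfatc4 (SE 0.40, adjusted p = 0.462). Both values turned on the fl/fl-MI pair. Without fl/fl-MI 2 the changes were 0.47 (edgeR adjusted p = 0.00423) and 0.74 (adjusted p = 0.00303), and without fl/fl-MI 1 they were 0.15 (adjusted p = 0.201) and -0.32 (adjusted p = 0.096). Exons of Nfatc3 overlap those of Esrp2 on the other strand. Per length the 4 NFAT genes were the lowest of the 10 along with Rcan3, from 1.09 to 2.74 FPKM in sham libraries, with Nfatc1 above the other 3 in each.

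Several cell type markers moved with surgery, where 22% of all tested genes were called higher after MI and 40.4% in either direction. The 5 fibroblast markers Col1a1, Col3a1, Pdgfra, Dcn and Lum were all called higher after MI, with summed levels of 1186 to 1355 CPM in sham and 1794 to 4645 CPM in MI libraries. The 4 endothelial markers were all called lower, from 1259 to 1337 CPM in sham to 393 to 596 CPM in MI libraries. Of the cardiomyocyte markers 2 were higher and 2 lower, and of the 4 macrophage markers 2 were higher (121.7 to 146 CPM in sham and 109.9 to 249 CPM in MI). Lymphocyte markers, the cells in which Nfatc2 was first described, summed to 2.44 to 5.00 CPM in sham and 2.24 to 3.84 CPM in MI libraries, with each of them at or below 1.89 CPM. Of the 4 smooth muscle markers 1 was called lower, of 3 neutrophil markers none was called, and all 3 erythroid markers were higher (57.7 to 416 CPM in sham and 200.2 to 547 CPM in MI). The library labelled fl/fl-MI 2 had the highest cardiomyocyte sum (31721 CPM) and the lowest fibroblast sum of the MI libraries (1794 CPM). Myh6 alone gave 18609 CPM of that cardiomyocyte sum. The cardiomyocyte markers did not all go this way, since Myl2, at 801 CPM in fl/fl-MI 2, was lower there than in any other library. The part of these differences in the changes of the 10 genes was not tested.

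Within the fl/fl label, Rcan1 was the gene that passed after MI, with a log2 change of 2.26 (SE 0.58, adjusted p = 0.0387, edgeR), where 10.1% of tested genes were called higher and 18.5% in either direction. The change was 0.91 without fl/fl-MI 1 and 2.94 without fl/fl-MI 2, and the call was lost without any one of the other 6 libraries (adjusted p of 0.0606 to 0.21), with only the 4 libraries compared (adjusted p = 0.134) and with a replicate block (adjusted p = 0.0548). The values that did not pass were 0.44 for Rcan2 (SE 0.19), 0.44 for Ppp3r1 (SE 0.14), 0.39 for Nfatc1 (SE 0.17), 0.74 for Nfatc2 (SE 0.23), 0.14 for Nfatc3 (SE 0.20), 0.22 for Nfatc4 (SE 0.56), 0.24 for Rcan3 (SE 0.26), 0.19 for Ppp3cb (SE 0.14) and 0.12 for Ppp3ca (SE 0.18). With fl/fl-MI 2 as the single MI library the value of Nfatc4 was -1.19, and with fl/fl-MI 1 as the single one it was 0.91, so that its direction depended on which of the pair was kept.

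Within the CKO label 3 of the 10 were called higher, where 12.8% of tested genes were called higher and 24.7% in either direction. These were Rcan1 (2.95, SE 0.59, adjusted p = 0.016, edgeR), Rcan2 (1.32, SE 0.20, adjusted p = 0.00706) and Nfatc1 (0.67, SE 0.17, adjusted p = 0.029). The values that did not pass were 0.47 for Ppp3r1 (SE 0.14, adjusted p = 0.0512), 0.54 for Nfatc2 (SE 0.23), 0.53 for Nfatc3 (SE 0.20), 0.56 for Nfatc4 (SE 0.56), 0.24 for Rcan3 (SE 0.26), 0.26 for Ppp3cb (SE 0.14) and -0.17 for Ppp3ca (SE 0.18). With only the 4 CKO libraries in the fit, 6 of the 10 passed, while calls over all genes went from 3467 to 4835. The calls of the members were lost without CKO-Sham 1 or without CKO-Sham 2, as were most calls over all genes. Either fit leaves 1 library in that group. The call of Nfatc1 was lost without any 1 sham or CKO-MI library (adjusted p of 0.0577 to 0.142), and that of Rcan1 also without CKO-MI 1 (adjusted p = 0.0673).

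Between the infarcted groups, CKO-MI against fl/fl-MI, 0 of the 10 genes and 0 of all tested genes (0%) passed in edgeR. At an unadjusted p below 0.05 there were 0 of the 10 and 1166 of all genes. DESeq2 and limma also called 0 of the 10, while over all genes DESeq2 called 207 and limma 0. The log2 difference was 0.68 for Rcan1 (SE 0.55, adjusted p = 0.776), 0.27 for Rcan2 (SE 0.19), -0.03 for Rcan3 (SE 0.26), -0.20 for Ppp3ca (SE 0.18), 0.09 for Ppp3cb (SE 0.14) and 0.00 for Ppp3r1 (SE 0.14). For the NFAT genes it was 0.12 for Nfatc1 (SE 0.17), -0.06 for Nfatc2 (SE 0.23), 0.33 for Nfatc3 (SE 0.20) and 0.41 for Nfatc4 (SE 0.56). Nfatc3 was the 1 gene whose CKO-MI libraries were both above the fl/fl-MI libraries, as were 14.5% of tested genes. Rcan1, Nfatc3 and Nfatc4 turned on the fl/fl-MI pair. Set against fl/fl-MI 2 alone, their differences were 2.03, 0.68 and 1.81, and set against fl/fl-MI 1 alone that of Rcan1 was -0.00019. These are values against a single library, with no spread of its own. The short-form and long-form rows of Rcan1 differed by 0.75 (SE 0.83, adjusted p = 1) and 0.32 (SE 0.21, adjusted p = 0.984).

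**Figure D4:**
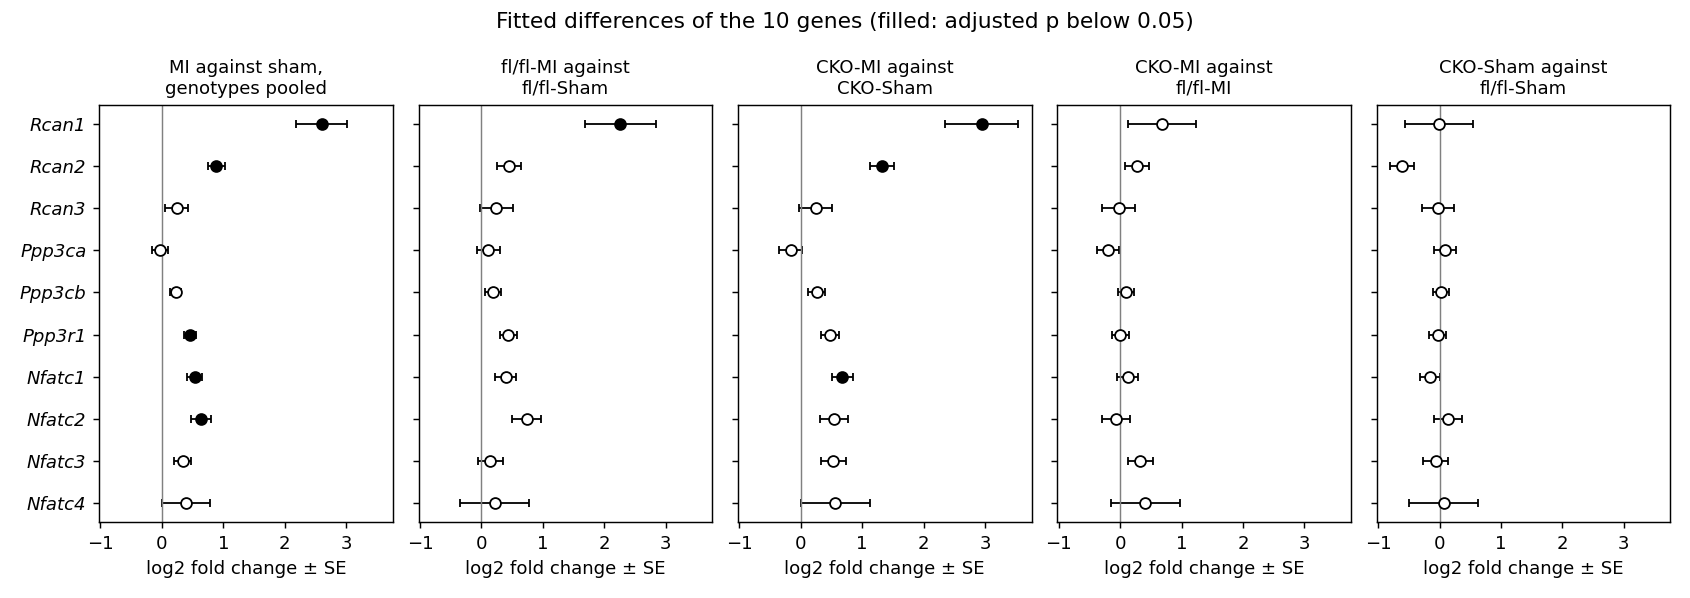
Log2 fold change (x axis) with its standard error for each of the 10 genes in 5 comparisons from the edgeR fit, with filled points where the adjusted p was below 0.05. There are 5 filled points with genotypes pooled, 1 within fl/fl, 3 within CKO and none between genotypes.

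In sham-operated hearts 0 of the 10 passed between CKO-Sham and fl/fl-Sham, where 1 of all tested genes was called (0.00713%, edgeR). Rcan2, at 117 and 127 CPM in CKO-Sham and 196 and 177 CPM in fl/fl-Sham, had the 1 unadjusted p below 0.05 among the 10. Its log2 difference was -0.61 (SE 0.19, edgeR adjusted p = 1). Fitted with the 4 sham libraries only, it passed (-0.61, adjusted p = 0.0355), as did 165 of all tested genes. DESeq2 and limma called 0 of the 10. Over all genes DESeq2 called 34, and limma called 2 with a pseudocount of 1 and 0 with a pseudocount of 0.1. Both CKO-Sham libraries were below both fl/fl-Sham libraries for Rcan2 and Nfatc1, as they were for 23.8% of tested genes. For the interaction of genotype and MI, Rcan2 again had the 1 unadjusted p below 0.05 among the 10, with 0.88 (SE 0.27, edgeR adjusted p = 0.574), and Rcan1 had 0.69 (SE 0.78, adjusted p = 0.84), so that the larger Rcan2 change within the CKO label was not shown to differ from that within fl/fl. For the interaction 0 of the 10 and 0% of tested genes passed in edgeR. DESeq2 and limma also called 0 of the 10, while over all genes DESeq2 called 130 and limma 0. Without fl/fl-MI 1, which leaves 1 library in that group, 2 of the 10 passed, 1 of them Rcan1 (2.03, edgeR adjusted p = 0.0178), as did 751 of all tested genes.

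The other genes of the pathway were read from lists. Among 9 NFAT kinases, which put phosphates back on NFAT, 6 were called higher after MI and none lower, with a median log2 change of 0.60, where 22% of all tested genes were called higher and the median was 0.03. They were Gsk3b (0.93, SE 0.11, adjusted p = 0.00122, edgeR), Dyrk2 (0.90, SE 0.26, adjusted p = 0.0312), Csnk1a1 (0.78, SE 0.11, adjusted p = 0.00243), Dyrk1a (0.60, SE 0.12, adjusted p = 0.00752), Csnk1d (0.60, SE 0.12, adjusted p = 0.00712) and Gsk3a (0.29, SE 0.09, adjusted p = 0.0469). Gsk3b was at 27.1 to 33.9 CPM in sham and 53.2 to 67.9 CPM in MI libraries. Dyrk2 reached 85.8 CPM in fl/fl-MI 2 and 33.4 to 36.3 CPM in the other MI libraries. The calls of Dyrk2 and Gsk3a were lost in 7 and 12 of 17 alternatives, each sham library left out among them, and Dyrk2 moved to 0.50 without fl/fl-MI 2. Mapk8, Mapk14 and Dyrk1b did not pass.

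Of 9 tested calcineurin-binding inhibitors and anchors, Chp1 (0.54, SE 0.09, adjusted p = 0.00387, edgeR) and Homer2 (0.84, SE 0.25, adjusted p = 0.0358) were called higher. Cabin1, a calcineurin inhibitor, was called lower (-0.27, SE 0.09, adjusted p = 0.0483). With limma on log2(FPKM + 1) Cabin1 was at 0.23 (adjusted p = 0.132), where the median of all genes was 0.41. Of the 11 genes listed, Myoz1 and Akap5 did not pass the expression filter and were not tested. Akap5, an anchor, was at 3.79 to 5.37 CPM in sham and 1.22 to 1.47 CPM in MI libraries. Of all tested genes 22% were called higher and 40.4% in either direction. The median log2 change of the 9 tested genes of this list was 0.00196. The calls of Homer2 and Cabin1 were lost in 6 of 16 and 9 of 16 alternatives, each sham library left out among them, and Homer2 moved to 0.55 without fl/fl-MI 1. Ppp3cc, the catalytic subunit gene outside the 10, and Nfat5, which calcineurin does not regulate, did not pass.

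Of 6 transcription partners 2 were called higher, beside 22% of all tested genes, namely Gata4, which acts with NFAT on cardiac promoters (0.87, SE 0.13, adjusted p = 0.0026, edgeR), and Fos (3.00, SE 0.65, adjusted p = 0.0112). Fos was at 7.85 to 14.7 CPM in sham and at 82.2, 423, 41.1 and 9.42 CPM in fl/fl-MI 1, fl/fl-MI 2, CKO-MI 1 and CKO-MI 2, so that the ranges overlapped. Its call was lost without fl/fl-Sham 1, fl/fl-Sham 2 or CKO-Sham 1 (adjusted p of 0.0519 to 0.0581). Of 4 genes of the fetal program, Nppa (4.50, SE 0.62, adjusted p = 0.00231), Nppb (2.79, SE 0.25, adjusted p = 0.000689) and Myh7 (1.72, SE 0.54, adjusted p = 0.0419) were called higher and Acta1 was not. Myh7 was at 685 to 1487 CPM in sham and at 3954, 607, 5520 and 2927 CPM in the MI libraries in the order above, so that fl/fl-MI 2 was the lowest of all 8 for it. Its change was 0.74 without fl/fl-MI 1 and 2.11 without fl/fl-MI 2. Its call was lost without any one of the 4 sham libraries or either CKO-MI library (adjusted p of 0.0612 to 0.14) and with a replicate block (adjusted p = 0.0843). No gene of these lists was called in CKO-MI against fl/fl-MI, in CKO-Sham against fl/fl-Sham or for the interaction.

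**Figure D5:**
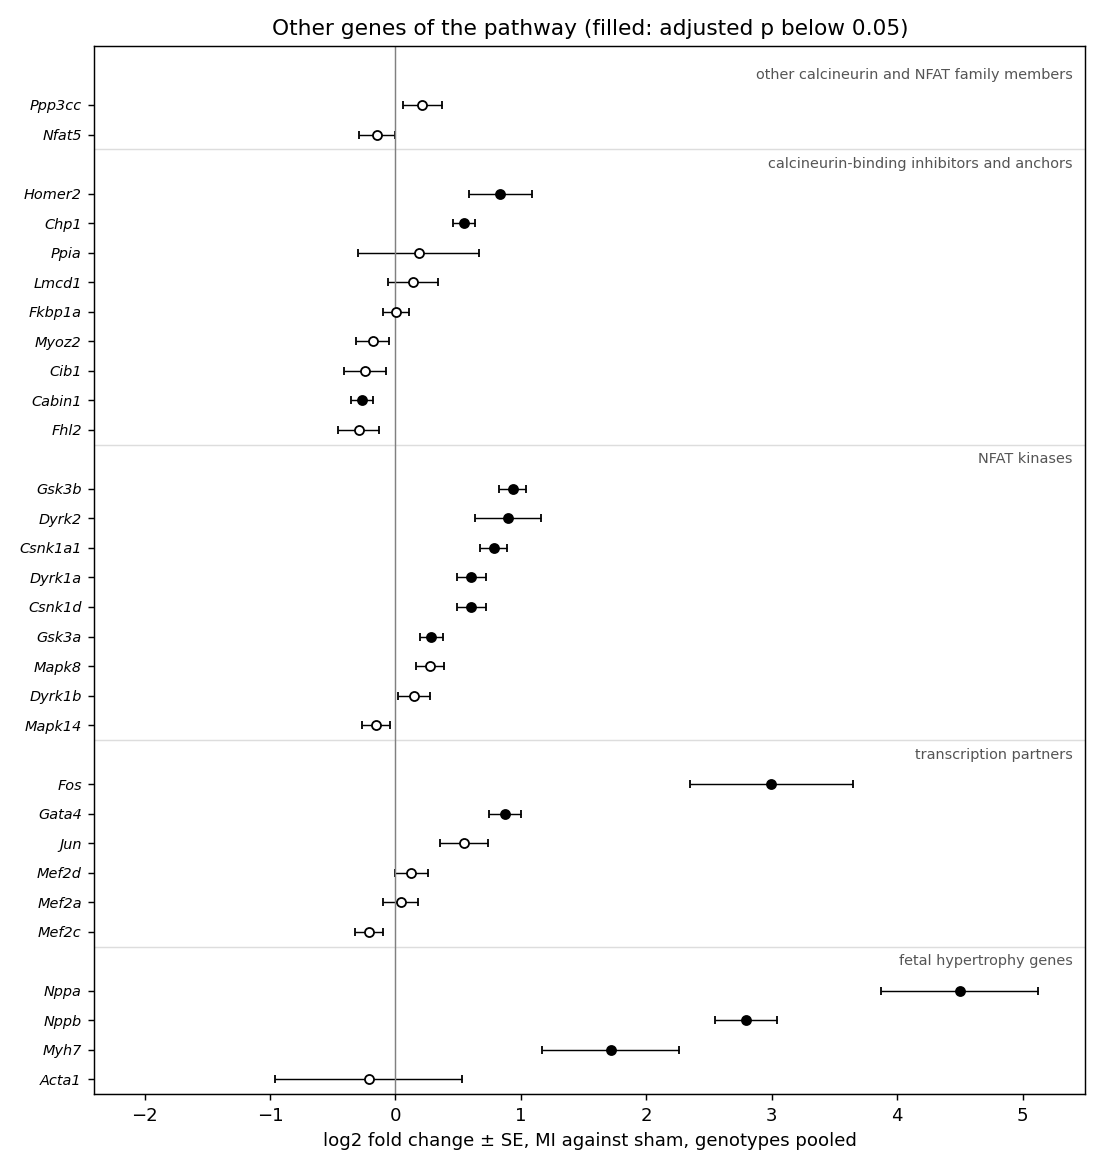
Log2 fold change of MI against sham (x axis, genotypes pooled) with its standard error for 30 other genes of the pathway, by list, with filled points where the edgeR adjusted p was below 0.05. The NFAT kinases hold 6 filled points, all above 0, and Cabin1, at -0.27, is the 1 filled point below 0.

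The genes whose levels ran most like Rcan1 over the 8 libraries, by Pearson r of log2 CPM, were Tlr4 (0.995), an innate immune receptor, Necap1 (0.994), Cdc5l (0.993), a spliceosome component, Rtn4 (0.992) and Hif1a (0.992), a transcription factor stabilized in hypoxia. Tlr4 was at 7.11 to 9.21 CPM in sham, 12.2 CPM in fl/fl-MI 2 and 37.3 to 43.6 CPM in the other MI libraries. All 5 were, like Rcan1, lowest among MI libraries in that labelled fl/fl-MI 2. They were chosen by r with Rcan1 over these same libraries, so this likeness follows from the choice. Those most like Ppp3cb were Krcc1 (0.976), Psmc6 (0.974), B020010K11Rik (0.974), Gm47882 (0.974) and Ttc1 (0.972). These r values are taken over points that share the split by surgery and carry no test.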

How the data were processed

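The 8 mouse myocardium RNA libraries were assigned to 4 groups of 2 from their titles. Poly(A) RNA had been selected, converted with a strand-marking kit and read from both ends (150 bases), and the submitters' processing notes name FastQC and cutadapt 1.9. The aligner, counter and annotation are not given in the sources used here, and 99.7% of gene IDs and 90.8% of gene spans matched GENCODE M21 on GRCm38. The authors deposited counts per gene and transcript, unnormalized whole numbers at about 4 per read pair, and FPKM values, normalized by the authors for length and library size.

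Genes (14028) and transcripts (26966) whose FPKM averaged 0.5 or more were tested with edgeR 4.0.16 in R 4.3.3 (TMM, quasi-likelihood, a mean per group over all 8 libraries) and called at a Benjamini-Hochberg adjusted p below 0.05 over all tested. SE is the log2 fold change over the root of F. On simulated gene counts of the pooled MI comparison (14028 genes) edgeR recovered 28 of 50 genes changed 1.5-fold, 48 of 50 changed 2-fold and all 100 changed 4-fold or 8-fold, with 14 wrong calls, and for 26966 transcripts 1, 18, 44 and 50 of 50, with 3 wrong calls. The changed genes and transcripts were drawn from those with higher counts, and no simulated library stood apart. These are therefore not recovery rates of the real libraries. Shares were compared with exact permutation tests (scipy 1.17.1). Alternatives were DESeq2 1.42.0, limma 3.58.1 on log2(FPKM + 1) and log2(FPKM + 0.1), DESeq2 size factors in edgeR (RLE), counts divided by 4, no filter or a mean FPKM of at least 5, no mitochondrially encoded genes, a replicate block, only the libraries compared, and each library left out, where the library left alone in its group takes its spread from the remaining groups. Columns with the authors' own comparisons were not used.

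All 10 members were named in every comparison with each Rcan1 transcript, pathway genes were named where called in the pooled MI comparison (except in 2 gene lists not reported here), and the 5 genes most like Rcan1 and Ppp3cb by Pearson r were listed. The members, gene lists and markers were chosen with earlier results of these data known. Counting intervals were not used, since precision was limited by 2 libraries per group.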

Additional observations from a re-analysis of the deposited data

Results flagged for a closer look

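The 4 label groups hold 2 libraries each, too few to look for a library far from the others, so the 4 MI and the 4 sham libraries were examined as sets. Of 30 sets, covering the 10 genes, both shares and 3 Rcan1 transcripts, 3 held a library far from the other 3. Chance gives about 1 in 20. Ppp3ca stood at 73.2 CPM in fl/fl-MI 2 and at 55.7 to 57.9 CPM in the other MI libraries. Nfatc3 was at 20.9 CPM in the same library and at 31.8 to 33.8 CPM in the other MI libraries. The long-form Rcan1 row ENSMUST00000232239 was at 17.4 CPM in the library labelled fl/fl-Sham 2 and at 25.3 to 25.9 CPM in the other sham libraries. No interaction of genotype and MI passed for any of the 10 genes.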

How the results depend on the processing

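With genotypes pooled, Rcan1 and Rcan2 were called after MI in every alternative run. The 5 calls among the 10 became 9 with limma on log2(FPKM + 1) or log2(FPKM + 0.1), 3 at a mean FPKM of at least 5, where fewer genes are tested, and 2 to 7 with 1 library left out. Within fl/fl the 1 call became 2 with DESeq2, 7 with limma at either pseudocount, 0 with only the 4 libraries compared, and 0 to 3 with 1 left out. Within CKO the 3 calls became 7 with limma at either pseudocount, 6 with only the 4 libraries compared, and 0 to 6 with 1 left out. CKO-Sham against fl/fl-Sham went from 0 to 1 with only the 4 libraries compared and stayed at 0 with 1 left out. With 1 left out, which leaves 1 library in a group, calls moved for CKO-MI against fl/fl-MI, the interaction and the Rcan1 transcripts. Those over all genes and transcripts moved as well. The difference in short-form share was then 36.4 to 47.4 points and that in Ppp3cb share 2.84 to 6.38. With 1 library left out the smallest exact permutation p is 0.0571, so these say nothing of stability. Over all genes, calls within fl/fl went from 2596 to 4038 with DESeq2, and to 5255 and 5437 with limma at pseudocounts of 1 and 0.1. With only the 4 libraries compared they went to 199. Within CKO they went from 3467 to 5164 and 5390 with limma, and to 4835 with only the 4 libraries compared. Except where the construction is named, the cause of these changes was not tested.

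Directions turned as follows, with the lowest and highest value over the libraries left out. With limma (pseudocount 1, then 0.1), Ppp3ca turned to 0.46 and 0.53 pooled and to 0.35 and 0.40 within CKO, Cabin1 to 0.23 and 0.29, and Ppp3r1 in CKO-MI against fl/fl-MI to -0.00968 and -0.00997, where it was also -0.00708 under the filter at FPKM 5 and -0.00379 with a replicate block. The pooled medians of all genes with limma were 0.41 and 0.56. Pooled Ppp3ca was 0.0374 with no filter and ranged from -0.12 (without fl/fl-MI 2) to 0.0532 (without CKO-Sham 1), and pooled Nfatc4 from -0.32 (without fl/fl-MI 1) to 0.74. Within fl/fl, between leaving out 1 or the other fl/fl-MI library, Ppp3ca ranged from -0.0781 to 0.26, Nfatc3 from -0.22 to 0.41 and Nfatc4 from -1.19 to 0.91. Within CKO, Rcan3 ranged from -0.17 to 0.54 (CKO-MI 2 or CKO-MI 1 left out). Between the infarcted groups, leaving out fl/fl-MI 2 or fl/fl-MI 1 gave Nfatc1 -0.0569 and 0.34, Nfatc4 -0.29 and 1.81, Rcan1 -0.00019 and 2.03 and ENSMUST00000023672 -0.0455 and 2.74. Leaving out CKO-MI 1 or CKO-MI 2 gave Ppp3r1 -0.0963 and 0.14, Nfatc2 -0.43 and 0.27, and Rcan3 0.31 and -0.41, and ENSMUST00000232457 ranged from -0.13 (without CKO-MI 1) to 1.08 (without fl/fl-MI 1). Of the other results, counted over all alternatives, 988 values of single genes and transcripts kept their direction and side of the threshold, 81 lost a call and 50 gained one.

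Replicate numbers appear to be only names, since the deviations of equally numbered libraries correlated at -0.14 to 0.06 between groups. With a replicate block the calls among the 10 were 5 pooled, 0 within fl/fl, 3 within CKO and 0 between the infarcted groups. Over all genes the calls with it and without it were 5085 and 5663 pooled, 1689 and 2596 within fl/fl, and 2677 and 3467 within CKO.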
